A study of Macaca mulatta with 12 samples.

Results

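FOS, FOSB, FOSL1, FOSL2, JUN, JUNB, JUND and EGR1 are immediate-early transcription factor genes, and all 8 were found among the 32386 genes of the count table. They were chosen by name. JUND is listed by its symbol, FOS, FOSB, FOSL1, FOSL2 and JUNB were named through an Ensembl name table, and JUN and EGR1 were named only in the authors' deposited tables of late against early libraries. Those tables list only genes that passed in the same comparison, so JUN and EGR1 could be identified here only because they had changed there, and their late against early tests are no independent evidence. The Ensembl name table gives both symbols to other gene identifiers, so the identity of these rows as JUN and EGR1 rests on the authors' deposited tables alone. All 8 passed the filter on low counts and were among the 11826 genes tested.

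RNA was sequenced from rhesus macaque (Macaca mulatta) blood cells sorted as CD14+ CD163+ and CD16-, which the labels call macrophages. The animals had been transplanted with their own mobilized CD34+ cells after CRISPR/Cas9 treatment, as a model of clonal hematopoiesis, and the series' title names TET2-mutant hematopoiesis. Cells came from 4.5 months (early) or 19 months (late) after transplant and were kept for 8 h, unstimulated (CTL) or stimulated (ACT) with lipopolysaccharide (LPS) at 100 ng/ml plus interferon-gamma at 20 ng/ml, at 250000 cells per well. The treatment label of the stimulated samples gives LPS alone. Each of the 4 groups (Early CTL, Early ACT, Late CTL and Late ACT) has 3 libraries. All groups came from edited grafts, so no unedited control is among them, and the labels give neither the share of edited cells nor whether replicates were separate animals or wells. P-values therefore reflect the spread of these libraries alone, which may be technical. Dates of sorting or sequencing are not among the labels, so an effect of time after transplant and an effect of batch cannot be told apart.

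FOS and JUN proteins pair through leucine zippers into AP-1, a transcription factor that binds many promoters and enhancers of inflammatory and matrix genes. FOS proteins bind DNA only with a partner, usually a JUN protein, whereas JUN proteins can also pair with each other. FOS, FOSB, JUN, JUNB and EGR1 are classic early targets of MAP kinase signaling and are induced within minutes of a stimulus, mostly returning towards their resting level within hours. FOSL1 and FOSL2 lack the strong transactivation domain of FOS and FOSB and tend to accumulate later. JUND is expressed more steadily. In macrophages LPS activates the MAP kinases that feed these genes, and AP-1 acts beside NF-kB at cytokine genes.

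Library totals ran from 3910680 to 12972505 counts, and the members had from 69 to 8128 counts in a library. Levels below are library-size-normalized counts (CPM, scaled with TMM factors), given as mean ± SD over 3 libraries. The TMM factors, which offset a change in the share of counts held by a few abundant genes, ran from 0.879 to 0.909 in Early ACT and from 1.08 to 1.10 in Early CTL. Late libraries had counts in more genes (17470 to 20760, against 13883 to 16132 in early libraries), and genes with a mean under 1 CPM summed to 4240 to 5242 CPM late and 1366 to 1619 CPM early. Markers of macrophages and CD14 monocytes (11 of 12 listed genes found in the table) summed to 11137 to 12380 CPM early and 6121 to 7097 CPM late. CD14 itself was at 2166 ± 80.6 CPM in Early CTL and 1500 ± 190 CPM in Late CTL, and CD163 at 1195 ± 47.3 and 583 ± 14.5 CPM. The T cell genes CD3E, CD3G and CD8A stayed under 1 CPM in every library. CD5, the other T cell gene found, had 2.97 CPM in Early ACT 1 and stayed under 1 CPM elsewhere. CD3D, CD2 and TRAC were listed but not found. Neutrophil markers (7 of 8 listed genes found) summed to 660 to 785 CPM early and 327 to 421 CPM late. Not every listed gene followed its sum. MRC1 of the macrophage list stood at 1.47 ± 0.63 CPM in Early CTL and 3.28 ± 0.72 CPM in Late CTL. MMP8 of the neutrophil list stood at 0.60 ± 0.23 CPM in Early CTL and 2.35 ± 2.11 CPM in Late CTL. Mitochondrial genes (8 found by symbol) summed to 3420 to 5055 CPM early and 5040 to 6129 CPM late. The macrophage and neutrophil marker sums were lower late, as most of the 8 factors were, while the low-abundance sum was higher late and the mitochondrial sum higher with a small overlap, and their part in the results was not tested. In RNA from many cells, fewer cells that express a gene and less RNA per cell cannot be told apart.

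With time after transplant the set moved almost as a block. In unstimulated cells 7 of the 8 genes fell and FOSL1 rose, and in stimulated cells 7 fell while FOSL1 did not pass the test. The genes were tested with edgeR's quasi-likelihood test over all 12 libraries, with Benjamini-Hochberg adjustment over all genes tested and a threshold of 0.05. Among all genes tested, 40.7% were called in unstimulated and 38.8% in stimulated cells. By direction, 19.8% were called lower and 20.9% higher in the unstimulated comparison, and 19.7% lower and 19.1% higher in the stimulated one. Without JUN and EGR1, 5 of 6 genes were lower and 1 higher in unstimulated cells (median -0.96), and 5 of 6 lower in stimulated cells (median -0.87). Early and late libraries did not overlap for any of the 8 genes in either state, as for 52.8% of all genes tested in unstimulated and 50.4% in stimulated cells. The median log2 fold change of the 8 genes was -0.81 in unstimulated cells, against 0.02 over all genes tested. In stimulated cells it was -0.82, against 0.05 over all genes tested.

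**Figure D1:**
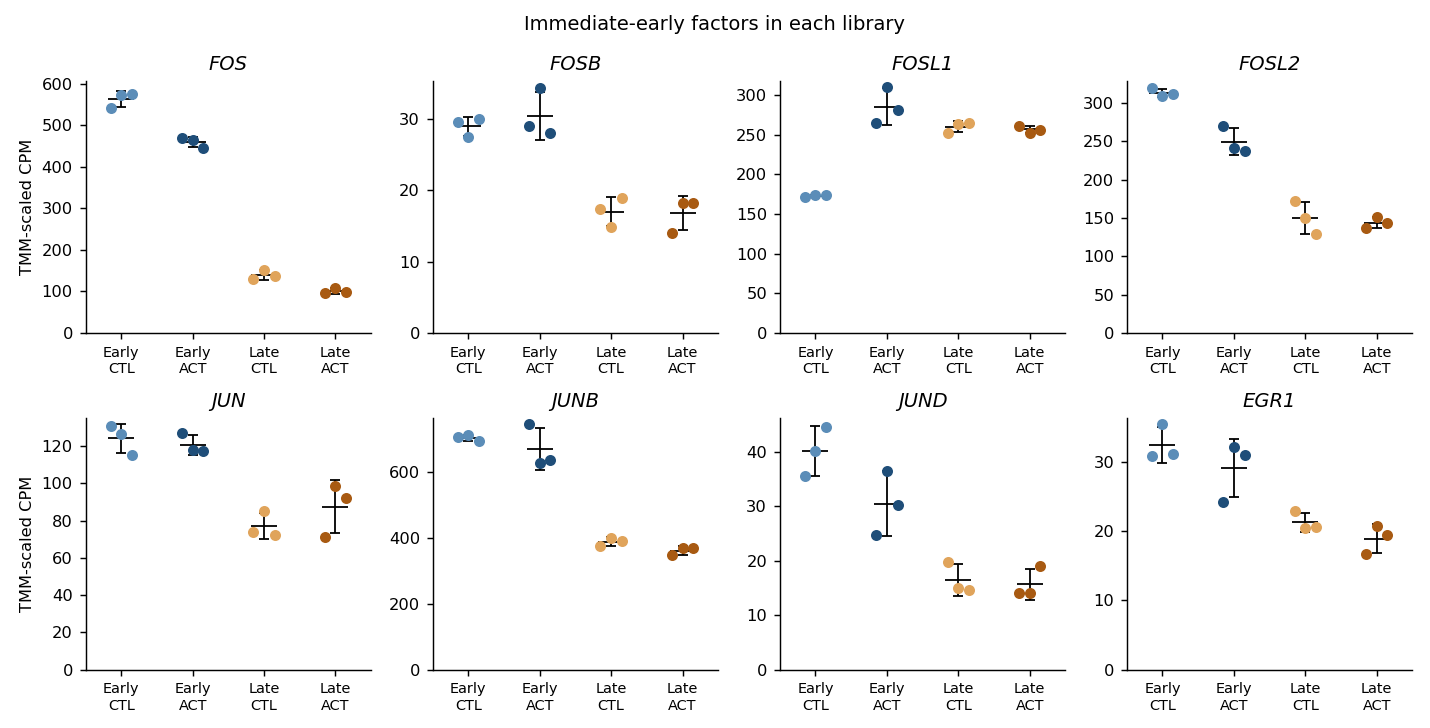
TMM-scaled CPM (vertical axis, from 0) of the 8 genes in each of the 12 libraries (points), with the mean and SD of each group (black bars). FOS stood at 541 to 575 CPM in Early CTL and at 96.4 to 109 CPM in Late ACT, whereas FOSL1 was lowest in Early CTL, at 171 to 174 CPM.

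FOS, the founding member of its family, fell most of the 8. It had 541, 573 and 575 CPM in the Early CTL libraries, 470, 464 and 446 in Early ACT, 130, 153 and 137 in Late CTL, and 96.4, 109 and 99.3 CPM in Late ACT. Each group lay apart from the next in that order, so every late library was below every early library. In unstimulated cells the late level was 4.0-fold lower (log2 fold change -2.0 ± 0.11 SE, adjusted p = 9.39e-13, edgeR quasi-likelihood test). In stimulated cells it was 4.51-fold lower (-2.17 ± 0.11, adjusted p = 5.73e-13, same test). Only 0.634% of all genes tested had a more negative fold change in unstimulated cells and 0.245% in stimulated cells. FOS lies on chromosome 7 from 137668275 to 137674715 (Mmul_8.0.1), a position that, like those of the other genes below, was read from the authors' deposited tables.

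FOSB, which like FOS carries a transactivation domain and is induced by many of the same signals, fell by less. Its level was 28.9 ± 1.33 CPM in Early CTL, 30.4 ± 3.40 in Early ACT, 17.0 ± 2.07 in Late CTL and 16.8 ± 2.40 CPM in Late ACT. The lowest early library (27.4 CPM) was above the highest late one (18.9 CPM), while stimulated and unstimulated libraries of the same time overlapped. The log2 fold change with time was -0.77 ± 0.17 in the unstimulated libraries and -0.85 ± 0.16 in the stimulated ones, with adjusted p of 0.000737 and 0.000246 in edgeR's quasi-likelihood test. FOSB lies on chromosome 19 from 40796025 to 40801381.

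FOSL2 (also called FRA2) followed FOS at a smaller size. It had 319, 310 and 311 CPM in Early CTL, 270, 242 and 237 in Early ACT, 172, 149 and 129 in Late CTL, and 137, 151 and 144 CPM in Late ACT. The 3 Early CTL libraries were above the 3 Early ACT libraries, and these above all late libraries, which overlapped with each other. FOSL2 was 2.08-fold lower late without stimulation (-1.06 ± 0.12, adjusted p = 1.33e-07) and 1.73-fold lower with it (-0.79 ± 0.12, adjusted p = 1.13e-05, edgeR quasi-likelihood test). It lies on chromosome 13 from 28699632 to 28721372, where an uncharacterized locus overlaps it in RefSeq's annotation of another assembly, T2T-MMU8v2.0.

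FOSL1 (FRA1), often found in activated or invasive cells, went the other way in unstimulated cells. It had 171, 174 and 174 CPM in Early CTL, 264, 311 and 281 in Early ACT, 252, 264 and 265 in Late CTL, and 261, 253 and 256 CPM in Late ACT. Early CTL stood apart below the other 9 libraries, and Late CTL overlapped with both stimulated groups. The late level in unstimulated cells was 1.51-fold higher (0.59 ± 0.11, adjusted p = 0.000104, edgeR quasi-likelihood test). In stimulated cells the 3 late libraries were below the 3 early ones, by -0.15 ± 0.11 (adjusted p = 0.276), which did not pass. Without the library Early ACT 1, which the other stimulated early libraries exceeded, that difference was -0.22 and passed as lower (adjusted p = 0.0268, edgeR quasi-likelihood test). FOSL1 lies on chromosome 14 from 8533161 to 8543366. In the RefSeq annotation CCDC85B overlaps it, and since the library kit does not mark the strand, reads of overlapping genes could be shared. CCDC85B, at 10.1 to 22.0 CPM, had a log2 fold change with time of -0.03 ± 0.20 in unstimulated cells (adjusted p = 0.924) and was lower late in stimulated cells, at -0.52 ± 0.19 (adjusted p = 0.0363 in edgeR's quasi-likelihood test). On early stimulation it differed by 0.58 ± 0.19 (adjusted p = 0.0717) and its late minus early difference of responses was -0.49 ± 0.28 (adjusted p = 0.554 in edgeR's quasi-likelihood test). Except for the unstimulated comparison these values have the signs of the FOSL1 values, and the part of shared reads in them was not tested.

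The JUN genes all fell with time at both states of stimulation. JUN, which forms the most active AP-1 pairs with FOS, had 131, 126 and 115 CPM in Early CTL, 127, 118 and 117 in Early ACT, 73.9, 85.3 and 72.1 in Late CTL, and 71.3, 98.5 and 92.1 CPM in Late ACT. Early and late libraries did not overlap, but the Late ACT libraries were spread (87.3 ± 14.2 CPM). The log2 fold change was -0.68 ± 0.13 without stimulation (adjusted p = 0.000185) and -0.46 ± 0.13 with it (adjusted p = 0.0064, edgeR quasi-likelihood test). Without Late ACT 1, the lowest JUN library, the second was -0.35 and no longer passed (adjusted p = 0.0548). JUN lies on chromosome 1 from 58441807 to 58442811.

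JUNB, which can restrain JUN activity in some settings and is needed for inflammatory activation of macrophages, fell in both states. Its level was 703 ± 9.74 CPM in Early CTL, 669 ± 65.1 in Early ACT, 389 ± 13.3 in Late CTL and 361 ± 12.9 CPM in Late ACT. The lowest early library had 627 CPM and the highest late one 401 CPM. JUNB was 1.80-fold lower late without stimulation (-0.85 ± 0.11, adjusted p = 7.46e-07) and 1.85-fold lower with it (-0.88 ± 0.11, adjusted p = 5.87e-07, edgeR quasi-likelihood test). It lies on chromosome 19 from 12738491 to 12739534, and HOOK2, which overlaps it in the RefSeq annotation, did not exceed 3.48 CPM in any library.

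JUND, the JUN gene with the steadiest expression in most tissues, changed most of the JUN genes in unstimulated cells by its fold change. It had 35.6, 40.2 and 44.6 CPM in Early CTL, 24.7, 36.6 and 30.3 in Early ACT, 19.9, 15 and 14.7 in Late CTL, and 14, 14 and 19.0 CPM in Late ACT. Early and late libraries did not overlap, while Early CTL and Early ACT did. The log2 fold change was -1.30 ± 0.18 in the unstimulated libraries and -0.97 ± 0.18 in the stimulated ones, with adjusted p of 4.26e-06 and 0.000165 in edgeR's quasi-likelihood test. It lies on chromosome 19 from 18296029 to 18297296. The deposited coordinates give spans of 1005 bp for JUN, 1044 bp for JUNB and 1268 bp for JUND, against 5357 to 21741 bp for the other 5 genes. Transcript lengths were not used here, so levels are not compared between genes.

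EGR1, a zinc finger factor induced by the same MAP kinase and serum response factor route but with its own binding site, fell as well. It had 30.8, 35.4 and 31.1 CPM in Early CTL, 24.2, 32.1 and 30.9 in Early ACT, 22.9, 20.5 and 20.5 in Late CTL, and 16.6, 20.7 and 19.4 CPM in Late ACT. The lowest early library (24.2 CPM) was above the highest late one (22.9 CPM), and within a time the groups overlapped. The log2 fold change was -0.61 ± 0.16 without stimulation (adjusted p = 0.00347) and -0.63 ± 0.16 with it (adjusted p = 0.00274, edgeR quasi-likelihood test). EGR1 lies on chromosome 6 from 136192911 to 136198460.

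The authors' deposited table for unstimulated cells lists all 8 genes, with log2 fold changes of late over early of -1.98 for FOS, -0.75 for FOSB, -1.05 for FOSL2, 0.61 for FOSL1, -0.66 for JUN, -0.84 for JUNB, -1.29 for JUND and -0.60 for EGR1. The authors' deposited table for stimulated cells lists the same genes except FOSL1, from -2.17 for FOS to -0.46 for JUN.

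**Figure D2:**
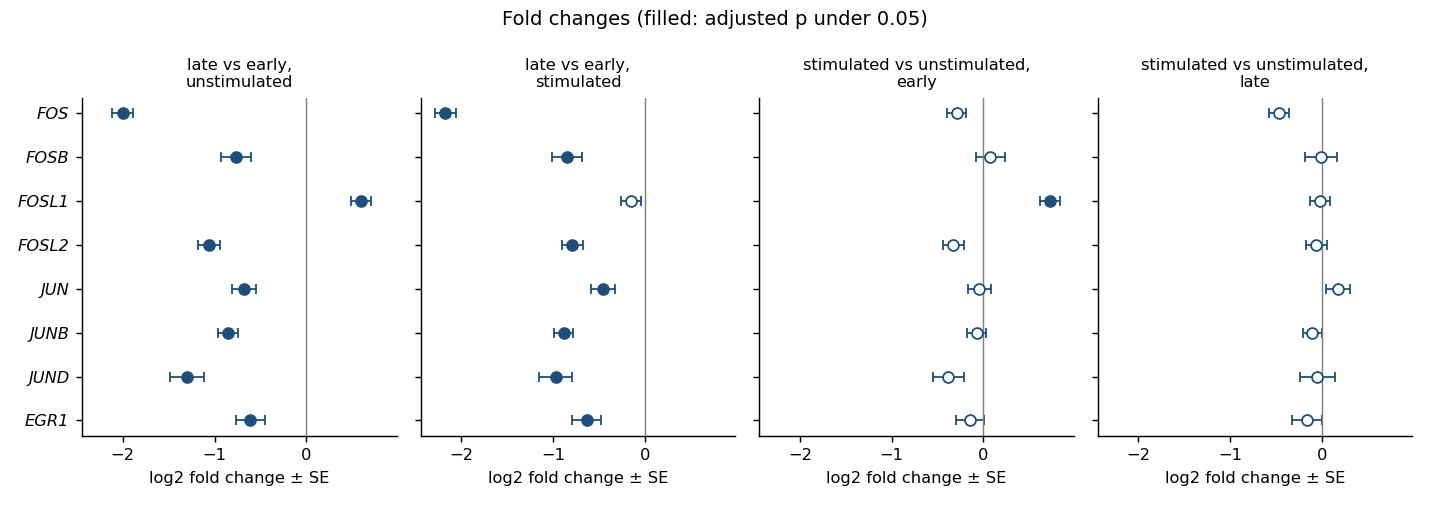
Log2 fold change ± SE (horizontal axis) of the 8 genes in 4 comparisons, from the edgeR quasi-likelihood test. Filled points passed an adjusted p of 0.05. With time FOS is farthest to the left in both states, and FOSL1 alone lies to the right in unstimulated cells, at 0.59.

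Few of these genes passed the test between stimulated and unstimulated cells, 8 h after stimulation began. At 4.5 months FOSL1 alone of the 8 was called, 1.65-fold higher with stimulation (0.72 ± 0.11, adjusted p = 4.94e-05 in edgeR's quasi-likelihood test). In that comparison 7.23% of all genes tested were called, 4.57% higher and 2.66% lower. All 3 stimulated early libraries had more FOSL1 than any unstimulated early one. This comparison and the one with time in unstimulated cells share the Early CTL libraries, the lowest for FOSL1, so the rises are not independent of each other.

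FOS and FOSL2 lay lower in every stimulated early library than in any unstimulated early one, without passing. Groups did not overlap for 25.7% of all genes tested in this comparison. FOS differed by -0.29 ± 0.11 (adjusted p = 0.103) and FOSL2 by -0.33 ± 0.12 (adjusted p = 0.088, edgeR quasi-likelihood test). Both passed without Early ACT 1 (adjusted p = 0.00745 and 0.0016) and with DESeq2 (adjusted p = 0.00664 and 0.0221). Before TMM scaling FOS was at 613 ± 17.1 CPM in Early CTL and 413 ± 8.61 CPM in Early ACT, a wider gap than the scaled 563 ± 19.0 and 460 ± 12.7 CPM. The early stimulation values of the other genes depend on this scaling too. Unscaled, JUN went from 135 to 108 CPM, JUNB from 766 to 601 CPM and JUND from 43.7 to 27.5 CPM. EGR1 went from 35.3 to 26.2 CPM and FOSB from 31.5 to 27.3 CPM, and the FOSL1 level was 1.36-fold higher in place of 1.65-fold. Leaving out the factors lowers every gene in Early ACT relative to Early CTL, so these shifts are not particular to the members. With TMM factors, JUND differed by -0.38 ± 0.17 (adjusted p = 0.192), EGR1 by -0.14 ± 0.15 and JUNB by -0.07 ± 0.11. JUN differed by -0.04 ± 0.13 and FOSB by 0.08 ± 0.16, and none of these genes passed (edgeR quasi-likelihood test).

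At 19 months none of the 8 genes was called between stimulated and unstimulated cells. edgeR's quasi-likelihood test called 0 of all 11826 genes there (0%), 527 had an unadjusted p under 0.05, and DESeq2 called 15. FOS had the lowest p of the 8, with all 3 stimulated late libraries (96.4 to 109 CPM) under all 3 unstimulated ones (130 to 153 CPM), a separation that 11% of all genes tested had. Its log2 fold change was -0.47 ± 0.11 (unadjusted p = 0.000295, adjusted p = 0.342, edgeR quasi-likelihood test). It ranked 10th by p among all genes tested, and it passed with DESeq2 (adjusted p = 0.000404) and in edgeR without Early ACT 1 (adjusted p = 0.000472). The other 7 genes ranged from -0.17 for EGR1 to 0.18 for JUN. FOSL1, the gene that rose on early stimulation, was at -0.02 ± 0.11.

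The difference between the late and the early response to stimulation was called for FOSL1 alone of the 8, against 1.41% of all genes tested (1.23% lower and 0.186% higher). Its late response was lower than its early response by a log2 value of -0.74 ± 0.15 (adjusted p = 0.00678, edgeR quasi-likelihood test). For the other 7 genes this difference ran from -0.17 ± 0.15 for FOS to 0.33 ± 0.26 for JUND, and none passed. The FOSL1 difference also uses the Early CTL libraries, so it is not independent of the FOSL1 rises above.

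Members of 1 family thus moved by different amounts, and this was tested on the log2 ratio of their counts within each library, in which library scaling cancels. Time labels were permuted within each state of stimulation, and stimulation labels within each time. The 9 pairs and both factors gave 18 exact two-sided permutation tests of 400 arrangements each, in which p = 0.005 is the smallest possible value. Benjamini-Hochberg adjustment was made over the 18 tests. Pairs with a gene in common share its counts, as all ratios with FOS do, so their tests are not independent of each other. The level of a ratio depends on the lengths of the genes, and only its change is described.

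Relative to each of its paralogs FOS was lower late. The FOS to FOSL1 ratio changed by -2.60 log2 units in unstimulated and -2.03 in stimulated cells (mean -2.31, permutation p = 0.005, adjusted 0.01). It was 1.66, 1.72 and 1.73 in Early CTL, 0.83, 0.58 and 0.67 in Early ACT, -0.95, -0.79 and -0.95 in Late CTL, and -1.44, -1.21 and -1.36 in Late ACT. No group overlapped another. The FOS to FOSB ratio changed by -1.28 and the FOS to FOSL2 ratio by -1.16 (permutation p = 0.005 and adjusted 0.01 for each). The FOSL1 to FOSL2 ratio rose by 1.15 (permutation p = 0.005, adjusted 0.01), with 1.66 in unstimulated and 0.65 in stimulated cells. FOS also fell relative to JUN, by -1.51, and to EGR1, by -1.48 (permutation p = 0.005 and adjusted 0.01 for each). JUN and EGR1 could be identified only because they had changed with time, so time tests of ratios with them are no independent evidence.

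Ratios among the JUN genes changed by smaller amounts, and the limit on time tests of ratios with JUN holds here too. The JUN to JUNB ratio was 0.29 log2 units higher late (permutation p = 0.01, adjusted 0.018). The JUN to JUND ratio was 0.54 higher late (permutation p = 0.02, adjusted 0.0327). That call was lost without Early CTL 2 or 3, Early ACT 2 or 3, Late CTL 2 or 3 or Late ACT 2, with adjusted permutation p from 0.0525 to 0.0675. The JUNB to JUND ratio differed by 0.25 (permutation p = 0.18, adjusted 0.191).

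With stimulation the FOS to FOSL1 ratio fell by 0.73, the FOS to JUN ratio by 0.44 and the FOS to FOSB ratio by 0.40 (permutation p = 0.005 and adjusted 0.01 for each). The FOSL1 to FOSL2 ratio was 1.05 higher in stimulated cells early and 0.04 higher late, and its mean difference of 0.54 missed the threshold (permutation p = 0.045, adjusted 0.0675). The other 5 ratios did not pass on stimulation (adjusted permutation p from 0.09 to 0.41).

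**Figure D3:**
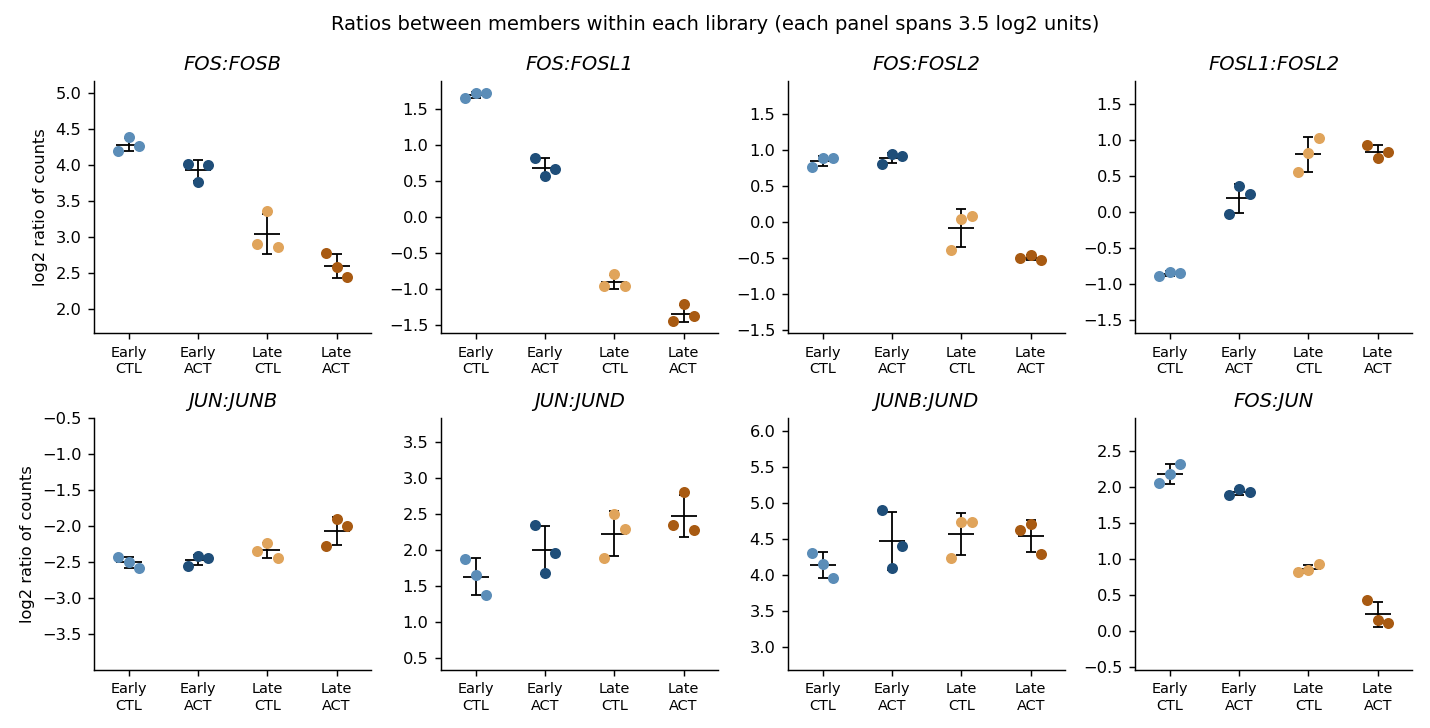
Log2 ratio of the counts of 2 genes in the same library (vertical axis, every panel spanning the same range) for 8 of the 9 pairs, with the mean and SD of each group of 3. The FOS to FOSL1 panel drops from 1.70 in Early CTL to -1.34 in Late ACT, whereas the JUNB to JUND means stay between 4.13 and 4.56.

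Of a list of 26 other immediate-early genes 17 were tested. In unstimulated cells 8 fell and 3 rose, with a median log2 fold change of -0.28, where 19.8% of all genes tested fell and 20.9% rose. In stimulated cells 10 fell and 2 rose, with a median of -0.46, where 19.7% of all genes fell and 19.1% rose. NR4A1, an orphan nuclear receptor gene, fell from 72.0 ± 3.06 to 31.6 ± 2.87 CPM in unstimulated cells (-1.17 ± 0.14, adjusted p = 3.57e-07, edgeR quasi-likelihood test). ZFP36, whose product destabilizes cytokine mRNAs, fell from 506 ± 23.0 to 242 ± 2.91 CPM, and KLF10, a zinc finger repressor induced by TGF-beta, from 556 ± 16.5 to 268 ± 6.23 CPM. PLK2, a polo-like kinase, rose from 20.7 ± 2.31 to 59.4 ± 16.2 CPM. In stimulated cells SGK1 (-0.94), a kinase of ion transport, and CSRNP1 (-0.78), a nuclear protein, fell along with NR4A1 (-1.05) and ZFP36 (-0.89). Genes such as IER2, IER3, BTG2 and MCL1 had no usable name in the table and are not analysed here.

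Of the EGR family and its corepressors only EGR2 and NAB1 were tested, and neither passed in either late against early comparison. EGR2, a relative of EGR1 in the same zinc finger family, stood at 102 ± 10.5 CPM in Early CTL and 114 ± 6.81 CPM in Late CTL. Its log2 fold change with time was 0.17 ± 0.12 without stimulation (adjusted p = 0.279) and 0.26 ± 0.12 with it (adjusted p = 0.0841, edgeR quasi-likelihood test). Whether EGR1 and EGR2 differ from each other was not tested.

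Other basic leucine zipper genes, many of whose products can pair with JUN or FOS proteins, had no common direction. Of 12 tested, 3 rose and 3 fell with time in unstimulated cells, and 1 rose and 4 fell in stimulated cells, so the number called was near the 40.7% and 38.8% of all genes tested. BATF, which competes with FOS for JUN partners, fell by 1.27 on the log2 scale in unstimulated cells, from 30.5 ± 1.70 to 12.5 ± 1.33 CPM, and by 0.94 in stimulated cells. CREM, of the cyclic AMP response family, rose from 11.6 ± 1.12 to 25.4 ± 5.45 CPM in unstimulated cells (1.15 ± 0.18, adjusted p = 1.46e-05, edgeR quasi-likelihood test) and by 0.83 in stimulated cells. MAFF, a small MAF protein gene without a transactivation domain, rose by 0.66 in unstimulated cells. ATF3, a stress-induced partner of JUN, fell by 0.84 in stimulated cells.

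Upstream of these genes, SRF, the serum response factor, was 1 of 6 tested genes of its list to pass in unstimulated cells, at -0.93 ± 0.28 (adjusted p = 0.0109 in edgeR's quasi-likelihood test). Its libraries were spread, at 14.3 to 21.3 CPM in Early CTL and 4.68 to 13.1 CPM in Late CTL. In stimulated cells SRF was at -0.48 ± 0.28 and did not pass (adjusted p = 0.174), while ELK4, a ternary complex factor, rose by 0.58 ± 0.23 (adjusted p = 0.0452 in edgeR's quasi-likelihood test). With 1 of 6 called in each state, this list too was below the 40.7% and 38.8% of all genes tested. That is no result about the list. Of 22 tested MAP kinase pathway genes 6 fell and 2 rose in unstimulated cells, and 6 fell and 0 rose in stimulated cells. These numbers called were below the shares over all genes tested (40.7% and 38.8%) and are no result about the list. MAP2K2, which activates ERK kinases, fell by 0.98 and 0.86, and MAPKAPK3, a kinase downstream of p38, by 0.82 and 0.80. RPS6KA1 fell by 0.83 and RPS6KA3 rose by 0.66 in unstimulated cells, both genes of ribosomal S6 kinases that ERK activates. MAPK3, the gene of ERK1, fell by 1.81 in stimulated cells, from 7.45 ± 1.09 to 2.08 ± 1.19 CPM.

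Genes known from textbooks as targets of AP-1 or EGR1 did not share the members' direction in unstimulated cells. Of 19 tested, 12 rose and 1 fell with time, with a median log2 fold change of 0.77, against 20.9% higher and 19.8% lower of all genes tested. MMP10 rose from 199 ± 11.9 to 797 ± 39.7 CPM and MMP1 from 455 ± 21.3 to 1232 ± 36.8 CPM, both matrix metalloproteinases with AP-1 sites in their promoters. The chemokine gene CCL2 rose by 2.36 and TNF by 1.59 on the log2 scale. In stimulated cells 5 of the 19 rose and 7 fell (19.1% and 19.7% of all genes tested did), with a median of -0.13, among them CCL2 (0.91), SPP1 (1.90), the urokinase receptor gene PLAUR (-0.90) and IL6 (-0.77). On early stimulation 11 of the 19 rose and none fell, where 4.57% of all genes rose and 2.66% fell, and on late stimulation none was called. The early stimulation comparison and the one with time in unstimulated cells share the Early CTL libraries, so these rises are not independent of each other. The list was drawn up with several of these values known, and HBEGF was named only by the authors' deposited tables. Without HBEGF the counts in unstimulated cells were 11 higher and 1 lower of 18.

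Heat-shock genes, which respond to handling and protein stress, rose in 5 of 7 tested members in unstimulated and 4 of 7 in stimulated cells, with none lower, against 20.9% and 19.1% of all genes tested that rose. The list held 12 genes, of which HSPA1A, HSPA1B, HSP90AA1, HSPB1 and HSPE1 were not found by name. HSPH1, a chaperone gene, rose from 89.4 ± 5.31 to 256 ± 17.5 CPM in unstimulated cells. The summed level of the 7 genes was 1430 to 1708 CPM early and 2424 to 2697 CPM late. Its part in the results on the 8 factors was not tested.

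**Figure D4:**
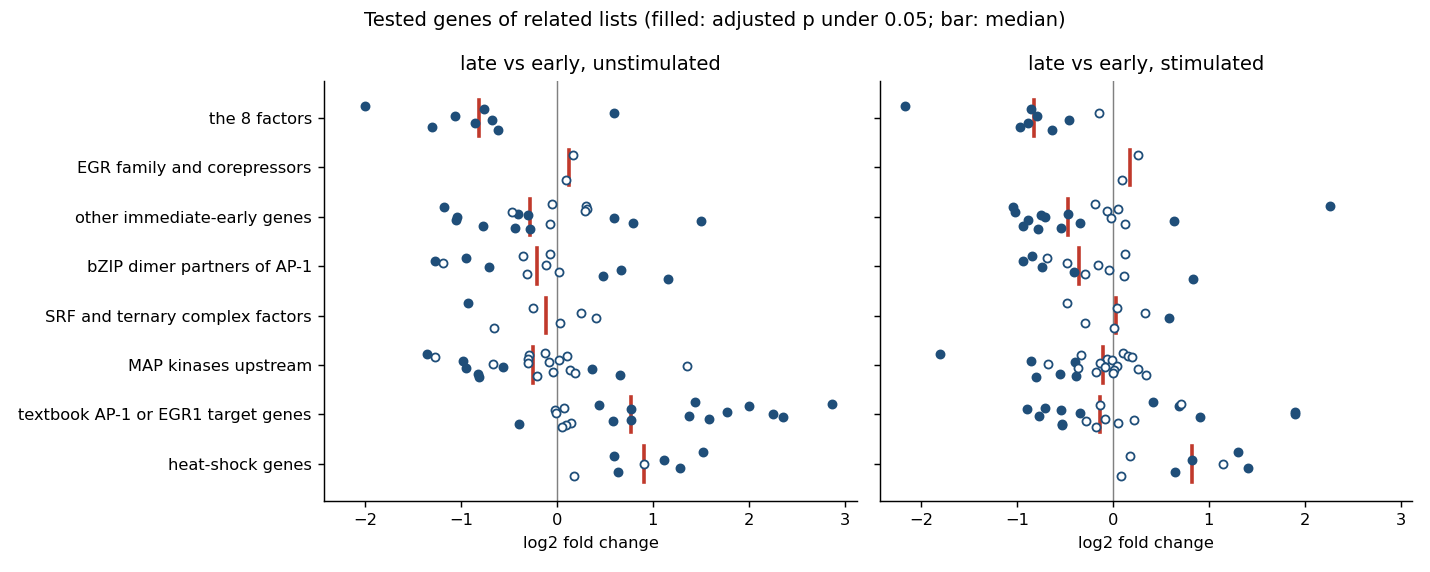
Log2 fold change with time (horizontal axis) of each tested gene of the 8 factors and of 7 related lists, in unstimulated and stimulated cells. Filled points passed an adjusted p of 0.05 and red bars mark medians, which for the textbook target genes lie at 0.77 and -0.13 and for the 8 factors at -0.81 and -0.82.

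Genes with the most similar course over the 12 libraries were sought among 6698 named genes with a mean of at least 5 CPM, by the Pearson correlation of log2 CPM. These correlations describe libraries that share their groups and are given with no test. For FOS they were PADI2 (r = 0.993), TYMP and MYD88 (r = 0.991 for both), the last of these the adaptor of Toll-like receptors. MYD88 had 384 to 413 CPM in Early CTL and 119 to 143 CPM in Late CTL. For JUNB they were NIBAN2 and SLC11A1, a phagosomal metal transporter gene (r = 0.997 and 0.996), and TREX1, a DNA exonuclease gene (r = 0.996). For FOSL2 they were MAP7D1, RABL6 and IRF5, an interferon regulatory factor gene (r = 0.991 for IRF5). For FOSB they were PGAM4, GRINA and NFAM1 (r from 0.976 to 0.98), and for JUN HDAC5, MFSD12 and MLXIP (r from 0.972 to 0.977).

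ZFP36 was the closest gene to EGR1 (r = 0.972), ahead of ATOSB (r = 0.956), and for JUND it followed MARCHF1 (r = 0.969 and 0.974), ahead of GLUD1. FOSL1 had a different set. SERPINB2, the gene of plasminogen activator inhibitor 2, was closest (r = 0.985), with 12627 to 13020 CPM in Early CTL and 22511 to 27690 CPM in the other 9 libraries. CSF3, the granulocyte growth factor gene (r = 0.982), had 168 to 177 CPM in Early CTL and 529 to 1016 CPM elsewhere, and ETS2, a transcription factor gene downstream of MAP kinases, followed (r = 0.973). As for FOSL1, the 3 Early CTL libraries were the lowest for each of these genes.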

How the data were processed

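The authors deposited raw read counts per gene and library, made from SMART-Seq v4 cDNA and Nextera XT libraries per the labels' protocols, and the submitters' processing notes name bcl2fastq and build Mmul_8.0.1. The names of aligner and counter were not given in the sources used here. The authors' deposited tables hold log2 fold changes with standard errors, a test score and p-values for late against early libraries, made with a tool they do not name.

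Genes were tested with edgeR 4.0.16 in R 4.3.3 (TMM factors, filterByExpr by group, robust quasi-likelihood F test, a coefficient per group over all 12 libraries). Each SE was obtained by dividing the size of the log2 fold change by the square root of F. Patterns were compared on log2 CPM (prior count 2), and ratios between genes used counts plus 0.5. Alternatives were DESeq2 1.42.0, other scalings and filters, a replicate block, only the compared groups and leaving out each library. The pipeline was tested on simulated data. Text names all 8 members, up to 4 members per list with the smallest p in each late against early comparison, and 3 genes of most similar course per member. A few genes that this rule picks are not reported here. SRF in stimulated cells, CD14, CD163, MRC1, MMP8, the T cell genes and the overlapping genes CCDC85B and HOOK2 were named outside this rule, after their values were seen. Members and lists were chosen with earlier results of these data known. Of 32386 genes, 15685 had a usable name.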

Additional observations from a re-analysis of the deposited data

Results flagged for a closer look

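FOSL1 was the only one of the 8 factors whose response to stimulation differed between the times by a direct test. Its stimulation response was smaller at 19 months by a log2 value of -0.74 ± 0.15 (adjusted p = 0.00678, edgeR quasi-likelihood test of the difference). FOSL1 went from 173 ± 1.31 to 285 ± 23.6 CPM on stimulation early and from 260 ± 7.29 to 257 ± 4.48 CPM late (SD, n = 3 each), so the late unstimulated level was already near the stimulated ones. The direct test uses the Early CTL libraries too, so it is not independent of the FOSL1 rises with time and on early stimulation. The call held in all 18 alternatives, with values from -0.80 to -0.68 and adjusted p from 8.45e-09 to 0.0376. All of these used scaling factors. Before TMM scaling FOSL1 went from 188 ± 1.46 to 256 ± 25.2 CPM on stimulation early. Late it went from 266 ± 8.67 to 256 ± 2.68 CPM. The difference of responses was smaller in these unscaled values and was not tested on them.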

How the results depend on the processing

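The late against early results for the 8 factors kept their direction and their side of the threshold in unstimulated cells under all 19 alternatives. FOS ranged from -2.08 to -1.88 there and FOSL1 from 0.53 to 0.72. In stimulated cells leaving out 1 library changed 2 calls, JUN and FOSL1, as given above, and the count of members called ran from 6 to 8. Over all single genes and ratios 976 alternative values kept their side of the threshold, called or not, 19 lost a call and 9 gained one. No value that passed in either fit changed sign. Some values that passed in neither did, such as FOSB on early stimulation (from -0.03 to 0.14). On early stimulation the 855 genes called became 503 with only the compared groups and 464 to 1554 with 1 library left out, the highest without Early ACT 1 and 464 to 485 without one of the Early CTL libraries. The members called went from 1 to 3 with DESeq2 and ran from 1 to 3 with 1 library left out. On late stimulation the 0 genes called became 2 with upper-quartile factors, 5 with no low-count filter, 10 with only the compared groups and 15 with DESeq2, and 0 to 29 with 1 library left out, 29 without Early ACT 1 and 2 without Early ACT 3 or Late CTL 1. The members called there were 1 with DESeq2 and 0 to 1 with 1 library left out. For the difference of responses the 167 genes became 312 with DESeq2 and 95 to 546 with 1 library left out, 546 without Early ACT 1 and 95 to 106 without Early CTL 1 or 2 or Late ACT 1 or 3. The causes were not tested. Upper-quartile factors moved the share called higher late from 51.3% to 63.3% in unstimulated and from 49.3% to 61.0% in stimulated cells, and the median of all genes from 0.02 to 0.15. That share was 64.5% with DESeq2 and 61.2% with no low-count filter in unstimulated cells. Same-numbered libraries did not deviate together (correlations from -0.09 to 0.10), so no pairing by number was seen. These correlations cannot exclude one, as the labels do not say what the replicates are. With the replicate block the members called were 8 and 7 in the late against early comparisons, and no call of a member changed. In the block version of the ratio tests, with 64 arrangements and a smallest p of 0.0313, 0 of the 11 ratio calls passed, with a lowest adjusted p of 0.0563. Leaving out 1 library left 10 to 12 ratio calls. The lowest counts, 69 for FOSB, limit its precision.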
